A study of Mus musculus with 6 samples.

Results

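Most genes described here encode the machinery that removes cytoplasmic and nuclear messenger RNA in mouse colonic crypt cells. Matching by name also brought in relatives with other tasks, such as Lsm10 and Lsm11 of the particle that processes histone mRNA. Members were chosen by symbol: the Cnot, Exosc, Dcp1, Dcp2, Edc, Lsm, Upf and Smg genes with a number in their name, the Pabpc and Zfp36 genes, and Dcps, Pan2, Pan3, Xrn1, Xrn2, Tob1, Tob2, Ddx6, Patl1 and Parn. A member also needed at least 10 counts in 3 or more of the 6 libraries. The names matched 72 of 55487 genes in the count tables, and 65 of these met the count rule, against 18376 genes of the whole table that met it. The rule uses names and count levels, not changes between groups, but the set was proposed with earlier results of these data known.

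Polyadenylated RNA was sequenced from purified colonic crypt cells of C57BL/6 mice aged 4 weeks. The 3 control libraries came from M14(f/f) mice, in which M14, read here as Mettl14, is flanked by loxP sites on both alleles, and the 3 mutant libraries came from M14(f/f);Villin-Cre mice. Both groups therefore carried the flanked alleles, and Villin-Cre, a Cre transgene driven by a promoter active in the gut epithelium, was in the mutants alone, so effects of Cre and of the loss of Mettl14 cannot be told apart. Mettl14 is the RNA-binding partner of the methyltransferase Mettl3, and together they write N6-methyladenosine (m6A), a mark that shortens the life of many messenger RNAs. The comparison asks how the transcripts of the decay machinery itself differed between mutants and controls. No library measured m6A, RNA half-life or protein.

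Decay of a messenger RNA usually begins at its poly(A) tail, which is shortened by the PAN2-PAN3 and CCR4-NOT deadenylases while poly(A) binding proteins cover it. The body is then destroyed either from the 5′ end, after DCP2 has taken off the cap with help from DDX6, PATL1, EDC4 and the LSM1 to LSM7 ring and XRN1 has digested the rest, or from the 3′ end by the RNA exosome. Specialised routes feed into this core: UPF and SMG proteins mark transcripts with a premature stop codon, and ZFP36 proteins bind AU-rich elements and recruit CCR4-NOT.

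Mettl14 itself, the check of the labels, had levels of 26.2, 20.9 and 22.0 CPM (counts relative to library size, scaled for composition by TMM) in control 1, 2 and 3 and of 13.99, 13.8 and 10.5 CPM in mutant 1, 2 and 3. It fell (log2 fold change -0.85, SE 0.133, adjusted p = 0.000622, edgeR's quasi-likelihood test with Benjamini-Hochberg adjustment over 18539 genes). Mutants kept 0.553 of the control level; which exons loxP sites flank is not stated in the labels, so counts over the whole gene are an incomplete check of the deletion. Library totals ran from 24181631 to 35183636 counts, and 0 counts allow up to 0.0820 to 0.120 CPM (3 counts, counting error only, since PCR reads are not independent molecules). In mutant 1 Xist stood at 652 CPM and 4 Y-linked genes together at 2.55 CPM, in mutant 2 at 53.1 and 176 CPM, and in the other 4 libraries Xist lay between 1.28 and 1.77 CPM and the Y-linked sum between 198 and 262 CPM. These libraries stand apart in sex-linked genes, so the counts of calls over members, by role and by list are also given without mutant 1 and mutant 2, a fit in which mutant 3 alone is assumed to vary like the controls. Nothing in the labels names separate animals for each library beyond the design's mention of 3 pairs of mice, so p-values measure the spread between these libraries.

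Of the 65 members, 13 rose and 18 fell in mutants at an adjusted p under 0.05, and 34 were not called. The 31 calls are 47.7% of members, beside 46.3% of all 18539 tested genes (23.5% higher and 22.8% lower) and 56.2% of genes with a mean of at least 5 CPM, so the share called was near the background. The median log2 fold change was -0.04 over members and 0.01 over all tested genes. Of the members, 11 of 65 (16.9%) had a log2 fold change beyond 0.5 in either direction, against 42.4% of all tested genes and 30.7% of those with at least 5 CPM. Against a null of 1.5-fold, 3 members rose (Smg8, Lsm10 and Dcp2) and 0 fell, beside 14.8% of all tested genes called in either direction, 9.28% higher and 5.54% lower. Control and mutant CPM ranges were separate for 40 members (61.5%), beside 56.9% of all tested genes and 65.4% of those with at least 5 CPM. Without mutant 1 and mutant 2, 9 members rose and 15 fell, and 33.2% of all tested genes were called. With library totals in place of TMM, 14 members rose and 11 fell. With DESeq2 size factors 13 rose and 18 fell, and with upper quartile scaling 13 rose and 19 fell. The split between higher and lower calls thus depends on whether libraries are scaled for composition.

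**Figure D1:**
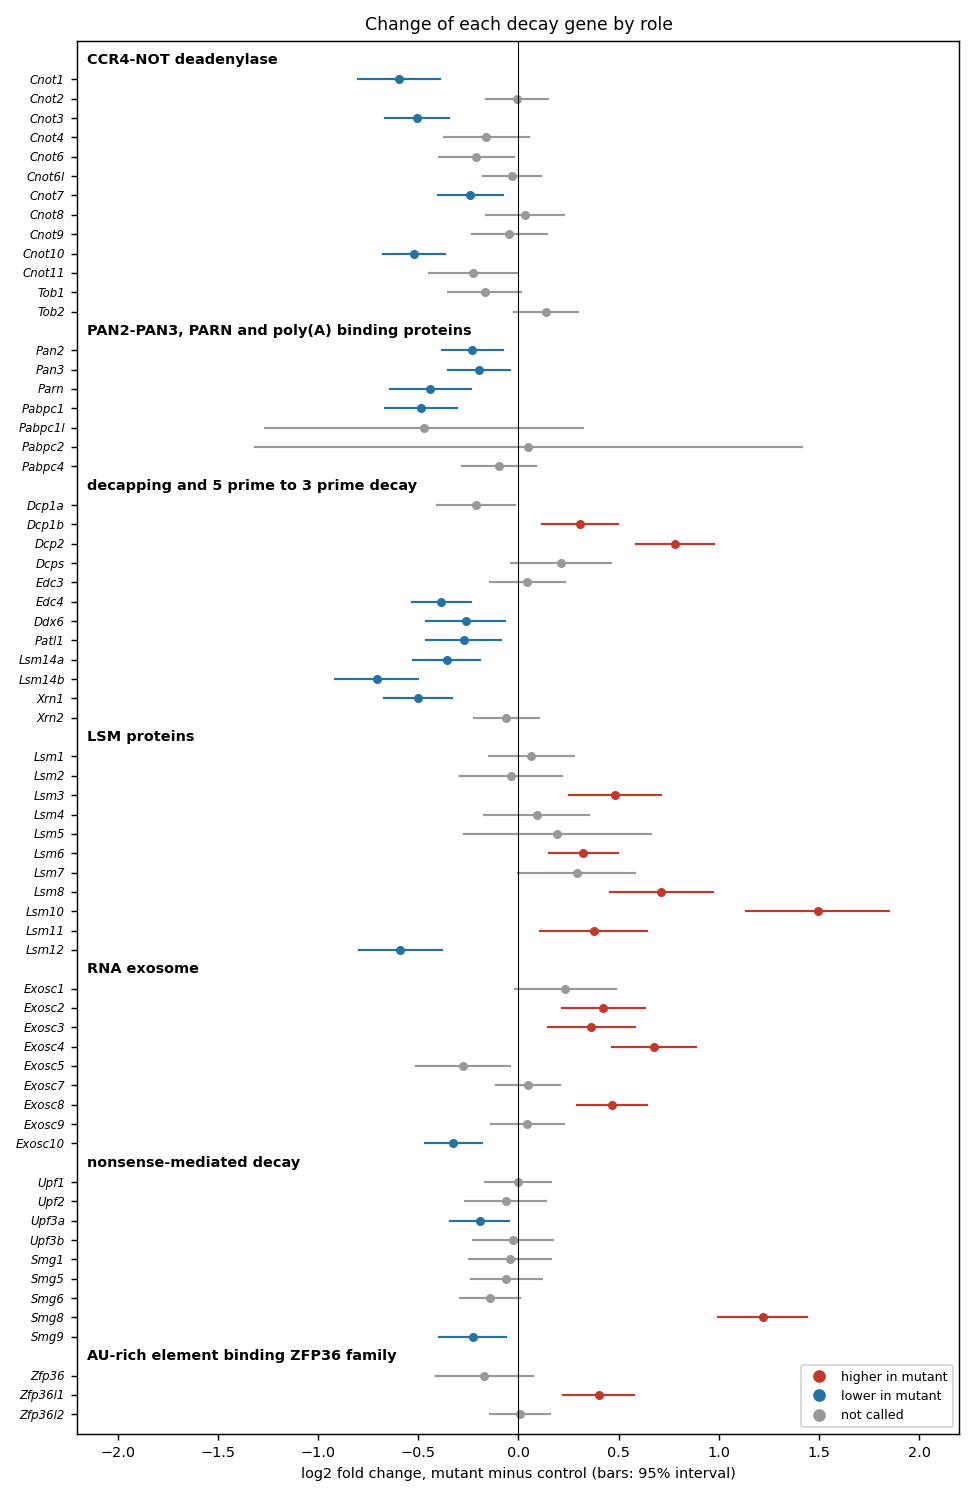
Log2 fold change (mutant minus control, x axis) of 64 of the 65 decay genes (y axis), grouped by role, with bars for the 95% interval; red and blue mark genes called higher and lower at an adjusted p under 0.05. Called genes of the deadenylases lie to the left of 0, while those of the LSM and exosome groups lie mostly to the right, up to 1.49 for Lsm10.

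Calls in each role were as follows. None of 13 CCR4-NOT genes rose and 4 fell (median log2 fold change -0.17), and of 7 genes for PAN2-PAN3, PARN and poly(A) binding proteins 0 rose and 4 fell (median -0.23). Among 12 genes of decapping and 5′ to 3′ decay, 2 rose and 6 fell (median -0.24). The LSM genes had 5 of 11 higher and 1 lower (median 0.29), and the exosome genes 4 of 9 higher and 1 lower (median 0.23). Nonsense-mediated decay genes had 1 higher and 2 lower of 10 (median -0.06), and 1 of 3 ZFP36 genes rose (median 0.01). The shares called ran from 30.0% (nonsense-mediated decay) to 66.7% (decapping), with 54.5% for LSM and 55.6% for exosome genes, beside the 46.3% of all tested genes and 56.2% of those with at least 5 CPM. Without mutant 1 and mutant 2, 0 rose and 3 fell among CCR4-NOT genes, 0 and 2 in the PAN2-PAN3, PARN and poly(A) group, 1 and 7 in decapping, 3 and 1 of LSM, 3 and 1 of exosome, 1 and 1 of nonsense-mediated decay and 1 and 0 of ZFP36 genes. Whether these groups differ from each other was not tested.

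Levels per kb of union exon length spanned a wide range. That length covers all annotated exons of a gene and can exceed the coding transcript (4199 against 503 bases for Lsm8). The order below therefore depends in part on the annotation. In controls Pabpc1 was the most abundant member, followed by Tob1 (55.8 ± 2.01 CPM per kb, SD, n = 3), Zfp36l2 (44.04 ± 0.391), Lsm4 (34.6 ± 4.98) and Upf1 (31.8 ± 0.499). Lsm4 and Upf1 did not differ beyond their spread, and the same 5 genes led in mutants in the same order. Apart from Pabpc1l and Pabpc2, near the detection floor, the lowest control level was that of Lsm11 (1.67 ± 0.218 CPM per kb). Lsm10 moved from place 53 of 65 in controls to place 20 in mutants (4.27 ± 0.753 to 12.03 ± 0.907 CPM per kb), Smg8 from 51 to 25 (4.45 ± 0.435 to 10.4 ± 0.833), and Lsm14b from 28 to 46 (8.83 ± 0.761 to 5.41 ± 0.289).

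The promoters of Smg8 and Lsm10, with the largest rises, and of Lsm14b, with the largest fall, are shown because they carry the extremes of the set. The sequences are the bases before the RefSeq start on GRCm38.p6 and outside the gene model of the count tables, written 5′ to 3′ on the gene's strand. Smg8 lies at chr11:87086778-87087027 (minus strand), Lsm10 at chr4:126096403-126096622 (plus strand) and Lsm14b at chr2:180024737-180024986 (plus strand). Capitals mark matches to the motifs searched on both strands.
Smg8: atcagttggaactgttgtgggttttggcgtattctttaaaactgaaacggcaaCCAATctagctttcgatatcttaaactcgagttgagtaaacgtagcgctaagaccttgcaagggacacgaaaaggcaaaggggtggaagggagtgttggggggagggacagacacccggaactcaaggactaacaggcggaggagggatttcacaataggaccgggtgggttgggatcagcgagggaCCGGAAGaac
Lsm10: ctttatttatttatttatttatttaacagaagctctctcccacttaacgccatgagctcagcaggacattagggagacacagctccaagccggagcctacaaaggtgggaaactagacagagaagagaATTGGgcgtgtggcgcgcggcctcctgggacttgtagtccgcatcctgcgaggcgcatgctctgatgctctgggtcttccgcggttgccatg
Lsm14b: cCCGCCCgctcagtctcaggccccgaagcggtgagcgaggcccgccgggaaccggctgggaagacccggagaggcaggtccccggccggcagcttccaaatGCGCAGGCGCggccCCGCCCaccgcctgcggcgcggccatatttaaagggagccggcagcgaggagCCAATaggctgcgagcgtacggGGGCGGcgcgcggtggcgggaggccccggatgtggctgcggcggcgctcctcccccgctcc

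The Smg8 stretch held an ETS motif (CCGGAAG) and CCAAT, that of Lsm10 held CCAAT on the other strand, and that of Lsm14b held an NRF1 motif, 3 GC boxes (GGGCGG) and CCAAT. RefSeq promoters of 300 bases, 250 before to 50 after the start, were matched by symbol and a start within 500 bases for 45 of 65 members. The NRF1 motif lay in 31.1% of these and in 4.6% of all 32851 promoters of the table, and the GC box, which can overlap other GC-rich motifs, in 75.6% and 35.7%. ETS stood at 17.8% and 8.86%, CCAAT at 46.7% and 37.4%, AP-1 (TGANTCA) at 6.67% and 7.81%, the E-box (CACGTG) at 6.67% and 7.15%, TATAAA at 4.44% and 13.6%, and the CRE (TGACGTCA) at 0% and 1.79%. The NRF1 motif was in 1 of 10 matched members that rose and in 4 of 12 that fell, and the GC box in 6 of 10 and 9 of 12. The promoter table was not limited to genes that met the count rule, whereas members met it and gave 1 start each. Shares of members and of all promoters are therefore not from like sets. Letters that match a motif are a description and say nothing about which factor binds there.

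The m6A writer complex acts on a short consensus whose commonest core is GGACT, so that core was located in the longest coding transcript of each gene (GENCODE vM21 on GRCm38). This choice was made after expression values were seen. The windows below centre on the match nearest the stop codon in Smg8 (chr11:87080522-87080546, minus strand), Lsm10 (chr4:126096770-126096794), Exosc4 (chr15:76329699-76329723), Xrn1 (chr9:96045500-96045524) and Lsm14b (chr2:180033831-180033855), the last 4 on the plus strand. Capitals mark the core; it lies wholly in coding sequence except in Exosc4, where its last base is the first base of the stop codon.
Smg8: attgtcatcaGGACTagagctgaag
Lsm10: cactggctgcGGACTtttcttccca
Exosc4: tctcactgggGGACTgagtggcaac
Xrn1: aagcctcatgGGACTaacgagttcc
Lsm14b: caccgagctgGGACTggccgggtat

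The core occurred 4 times in Smg8, 2 times in Lsm10, 5 times in Exosc4, 3 times in Xrn1 and 4 times in Lsm14b, so both risen and fallen transcripts held it. Its median density was 0.852 per kb over 64 members and 1.06 per kb over 14200 tested genes with a coding transcript, and 1.19 per kb over members that rose against 0.717 per kb over those that fell. At least 1 core lay within 200 bases of the end of the coding sequence in 21.9% of members and in 39.6% of those genes. These counts describe letters, and methylation of any of these sites was not measured.

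Genes of 4 CCR4-NOT subunits fell, which is 36.4% of the 11 Cnot genes, beside 46.3% of all tested genes called. Cnot1 (ENSMUSG00000036550.16, chromosome 8, 95719451 to 95807464 on GRCm38, minus strand), the scaffold on which the complex assembles, stood at 302, 339.5 and 311 CPM in controls and at 230.5, 211 and 188 CPM in mutants. The groups did not overlap, and Cnot1 fell (log2 fold change -0.60, SE 0.0917, adjusted p = 0.000582). Cnot3, whose protein docks onto the scaffold as part of the NOT module, fell from 72.6, 71.98 and 79.95 CPM to 53.8, 53.9 and 50.4 CPM (log2 fold change -0.51, SE 0.0715, adjusted p = 0.000345). Cnot10, of the module that binds the N-terminal part of CNOT1, fell from 58.8, 58.1 and 53.6 CPM to 39.2, 41.02 and 38.6 CPM (log2 fold change -0.52, SE 0.0693, adjusted p = 0.000243).

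Of the catalytic subunits, Cnot7 held 53.8, 50.8 and 47.04 CPM in controls and 41.6, 42.98 and 43.8 CPM in mutants, a fall (log2 fold change -0.24, SE 0.0726, adjusted p = 0.0219). That call was lost without control 1, without mutant 1 and mutant 2, with library totals in place of TMM and with a replicate block. Its close relative Cnot8 held 51.05, 42.5 and 51.4 CPM against 48.9, 47.9 and 51.4 CPM, overlapping levels with a log2 fold change of 0.03 (95% interval -0.16 to 0.23). The other 6 complex genes that were not called (Cnot2, Cnot4, Cnot6, Cnot6l, Cnot9 and Cnot11) had log2 fold changes from -0.23 to -0.01. Tob1 and Tob2 link CCR4-NOT to poly(A) binding protein and slow proliferation. Tob1 held 126, 125 and 133 CPM in controls and 103, 116 and 122 CPM in mutants (adjusted p = 0.114), and Tob2 held 37.9, 37.6 and 36.8 CPM against 38.6, 41.3 and 43.5 CPM (adjusted p = 0.145). Their ranges did not overlap between groups, in opposite directions, yet neither passed the test.

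**Figure D2:**
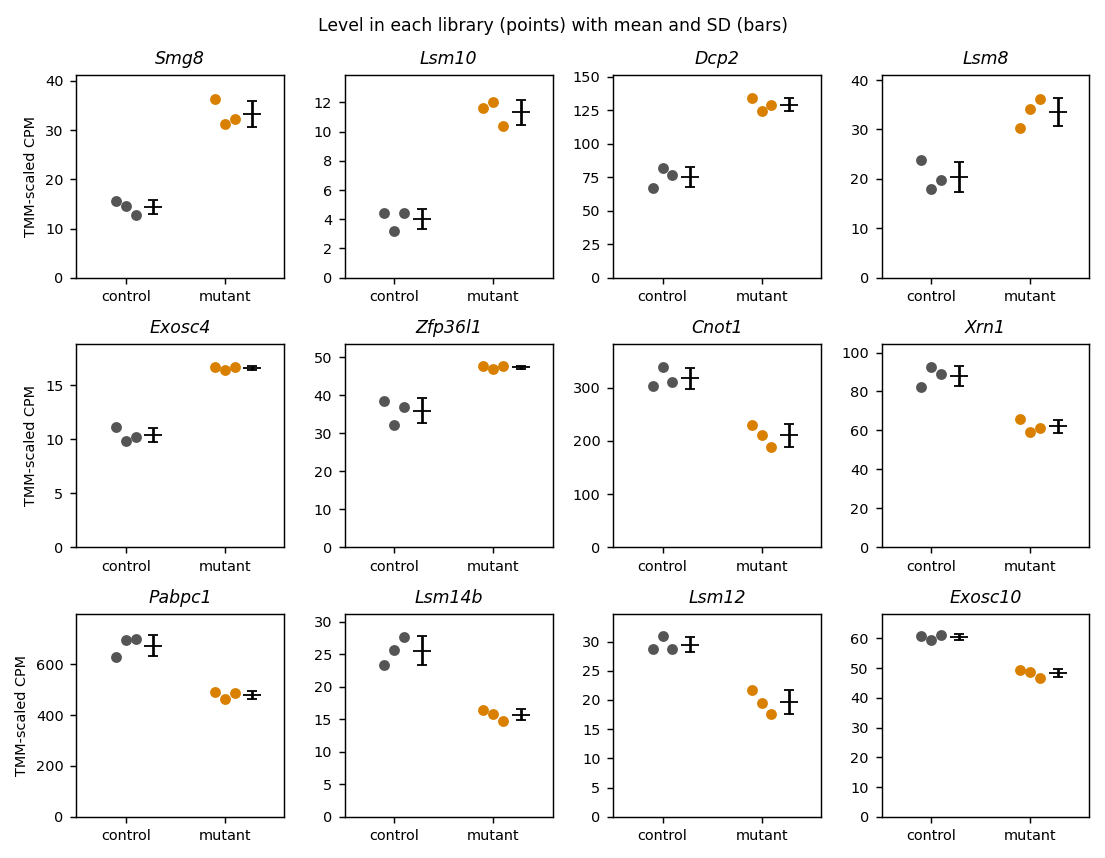
TMM-scaled CPM (y axis, from 0) of 12 decay genes in each control and mutant library (points) with the mean and SD of each group (bars). In all 12 panels the control and mutant points are separate; Smg8, Lsm10, Dcp2, Lsm8, Exosc4 and Zfp36l1 are higher in mutants and the others lower.

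Genes of PAN2, PAN3, PARN and the main poly(A) binding protein fell as well. Pabpc1 was the most abundant member per kb of union exon length (103 ± 6.20 CPM per kb in controls, SD, n = 3). It held 627, 695 and 698 CPM in controls and 491, 462 and 488 CPM in mutants. All mutant libraries were lower (log2 fold change -0.49, SE 0.0804, adjusted p = 0.000888). Pabpc4, a minor relative, held 22.7, 20.2 and 20.5 CPM against 19.3, 19.5 and 20.5 CPM (log2 fold change -0.10, 95% interval -0.28 to 0.09). Parn, a poly(A)-specific ribonuclease that also matures small RNAs, fell from 32.6, 29.3 and 27.7 CPM to 23.7, 21.8 and 20.8 CPM (log2 fold change -0.44, SE 0.0893, adjusted p = 0.00294).

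Pan2, the catalytic subunit of the first deadenylase, held 52.2, 50.3 and 53.4 CPM in controls and 42.3, 44.6 and 45.99 CPM in mutants (log2 fold change -0.23, adjusted p = 0.0188). Pan3, its adaptor, held 96.8, 104 and 105 CPM against 90.1, 85.04 and 91.7 CPM (log2 fold change -0.20, adjusted p = 0.0413). Both falls are small: the call of Pan2 was lost without control 3, and that of Pan3 without control 2, control 3, mutant 2 or mutant 3 and with DESeq2. Both were lost without mutant 1 and mutant 2, with library totals and with the replicate block. Pabpc1l and Pabpc2, mainly known from germ cells, were near the floor at 0.558 and 0.422 mean CPM in controls and were not called.

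In decapping, the gene of the enzyme rose while those of several activators fell. Dcp2, which cuts the cap, held 66.7, 82.1 and 76.7 CPM in controls and 135, 124 and 129 CPM in mutants. The groups were far apart (log2 fold change 0.78, SE 0.0868, adjusted p = 7.93e-05), and the call held in all 19 alternative fits. Dcp1b, a coactivator of DCP2, rose from 14.1, 13.5 and 13.5 CPM to 16.7, 17.3 and 16.8 CPM (log2 fold change 0.31, SE 0.0846, adjusted p = 0.0138), a call lost without control 2 or control 3, and without mutant 1 and mutant 2. Its relative Dcp1a held 32.3, 34.7 and 34.3 CPM against 32.7, 27.6 and 27.2 CPM (log2 fold change -0.21, adjusted p = 0.0725), and was called lower without mutant 1.

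Edc4, the scaffold that ties DCP2 to DCP1, fell from 49.9, 48.4 and 48.9 CPM to 37.3, 39.4 and 36.2 CPM (log2 fold change -0.38, SE 0.0665, adjusted p = 0.00117). Of its exon bases 8.33% are shared with Nrn1l, and reads there went uncounted. Edc3 held 20.1, 21.6 and 18.9 CPM against 20.7, 21.7 and 20.3 CPM (log2 fold change 0.04, 95% interval -0.14 to 0.23). Lsm14b (ENSMUSG00000039108.14, chromosome 2, 180024987 to 180035465, plus strand), whose protein belongs to the P-body LSM14 family, showed the largest fall among members, from 23.3, 25.6 and 27.7 CPM to 16.4, 15.8 and 14.8 CPM (log2 fold change -0.71, SE 0.0925, adjusted p = 0.000219). Its relative Lsm14a fell from 104, 98.3 and 94.96 CPM to 82.8, 76.4 and 72.7 CPM (log2 fold change -0.36, SE 0.0749, adjusted p = 0.00349).

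The helicase gene Ddx6 (log2 fold change -0.26, adjusted p = 0.0321) and Patl1, which bridges deadenylated ends to decapping (log2 fold change -0.27, adjusted p = 0.0228), fell slightly. Their calls were lost without control 2 (Ddx6), control 1 (Patl1), mutant 2 or mutant 3 (both), and with library totals (both). Xrn1, the cytoplasmic 5′ to 3′ exonuclease, fell from 82.3, 92.6 and 88.8 CPM to 65.98, 59.1 and 60.98 CPM (log2 fold change -0.50, SE 0.0755, adjusted p = 0.000506). Xrn2, the nuclear one, held 97.4, 106 and 105 CPM against 104, 94.01 and 97.05 CPM, with overlapping groups (log2 fold change -0.06, 95% interval -0.22 to 0.10). Dcps, which clears cap remnants after 3′ decay, was not called (log2 fold change 0.21, adjusted p = 0.144).

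Sm-like proteins form rings that hold RNA ends: LSM1 to LSM7 in the cytoplasm, LSM2 to LSM8 on U6 RNA in the nucleus, and LSM10 with LSM11 in the U7 particle that processes histone mRNA. Lsm10 (ENSMUSG00000050188.8, chromosome 4, 126096623 to 126098584, plus strand) had the largest rise of all members, from 4.45, 3.21 and 4.42 CPM to 11.6, 12.05 and 10.4 CPM (log2 fold change 1.49, SE 0.160, adjusted p = 6.44e-05). Lsm11 rose less (log2 fold change 0.38, SE 0.119, adjusted p = 0.0266), and lost its call without control 1, control 3, mutant 2 or mutant 3, and without mutant 1 and mutant 2. Both U7-specific genes were thus higher, though only the rise of Lsm10 held in all 19 alternative fits.

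Of the 8 ring genes Lsm1 to Lsm8, 3 rose and 0 fell. The share called was 37.5%, beside 46.3% of all tested genes and 56.2% of those with at least 5 CPM. Lsm8, the subunit that makes the ring nuclear, rose from 23.8, 17.9 and 19.7 CPM to 30.4, 34.1 and 36.1 CPM (log2 fold change 0.71, SE 0.114, adjusted p = 0.000739). Lsm3, which shares 6.32% of its exon bases with Gm45216, rose from 31.5, 24.96 and 28.2 CPM to 43.4, 36.5 and 38.1 CPM (log2 fold change 0.48, SE 0.102, adjusted p = 0.00378). Lsm6 rose with a log2 fold change of 0.32 (adjusted p = 0.00649), and its call was lost without mutant 1 and mutant 2. Lsm1, the subunit that makes the ring cytoplasmic, was not called, nor were Lsm2, Lsm4, Lsm5 and Lsm7, and log2 fold changes of these 5 lay between -0.04 and 0.29. Lsm12 fell from 28.8, 30.96 and 28.7 CPM to 21.7, 19.4 and 17.7 CPM (log2 fold change -0.59, SE 0.0921, adjusted p = 0.000641).

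**Figure D3:**
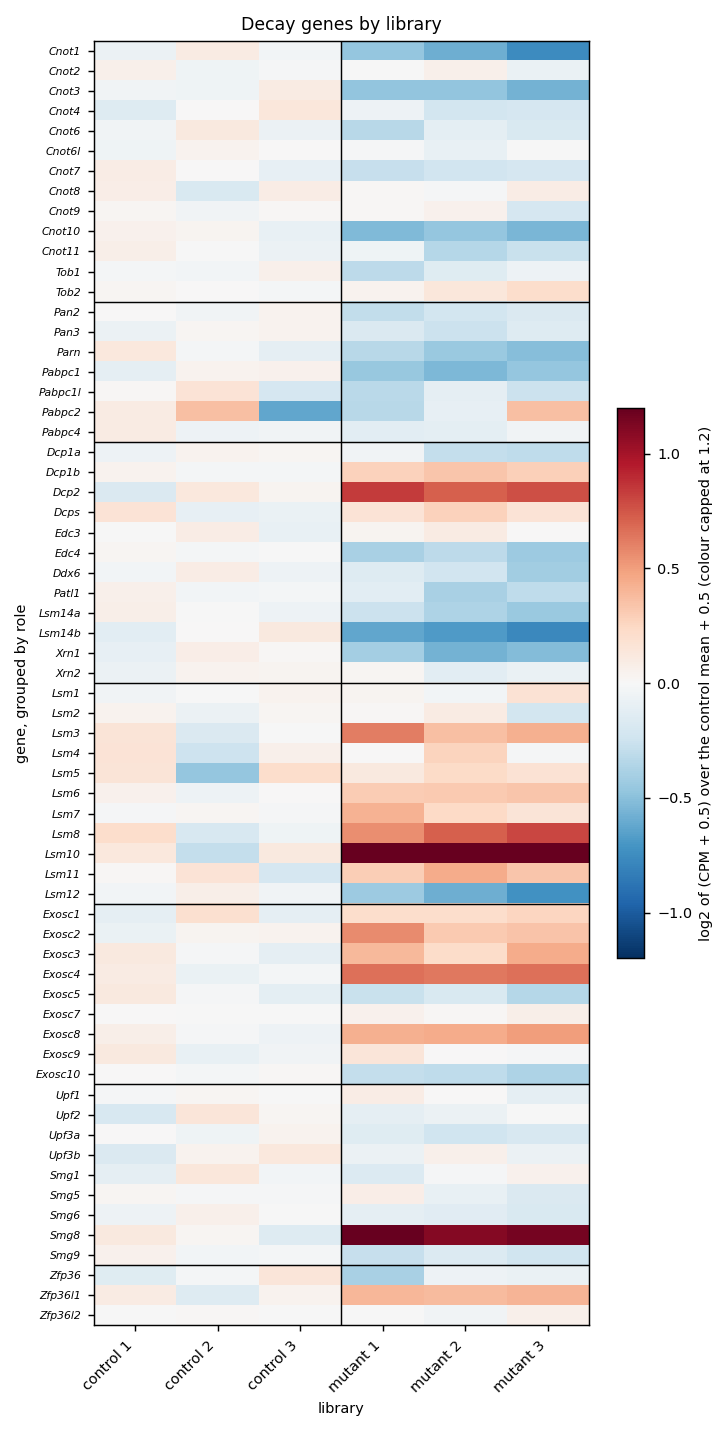
Log2 of (CPM + 0.5) over the control mean + 0.5 for 64 of the 65 genes (y axis, in blocks by role) in each of the 6 libraries (x axis), red above and blue below the control mean, with the colour capped at 1.2. Smg8 and Lsm10 are dark red in all 3 mutant libraries and Cnot1, Cnot3, Cnot10, Lsm14b and Lsm12 are blue in all 3.

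The exosome is a ring of RNase PH-like subunits with a cap of RNA-binding subunits, to which the nuclease EXOSC10 attaches. Exosc4, a ring subunit, rose from 11.1, 9.82 and 10.2 CPM to 16.7, 16.4 and 16.7 CPM (log2 fold change 0.68, SE 0.0943, adjusted p = 0.000323). Exosc8, also of the ring, rose from 19.6, 18.5 and 17.8 CPM to 25.2, 25.5 and 26.6 CPM (log2 fold change 0.47, SE 0.0779, adjusted p = 0.000927). Exosc2, of the cap, rose from 17.4, 18.8 and 19.00 CPM to 27.4, 23.1 and 23.5 CPM (log2 fold change 0.42, SE 0.0923, adjusted p = 0.0044), and this call was lost without mutant 1 and mutant 2.

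Exosc3, also of the cap, rose with a log2 fold change of 0.36 (adjusted p = 0.0125), a call lost without control 3. The catalytic Exosc10 fell from 60.9, 59.5 and 61.2 CPM to 49.4, 48.8 and 46.7 CPM (log2 fold change -0.33, SE 0.0635, adjusted p = 0.00231). Of the 8 core genes 4 rose and 0 fell. This is 50% called, near the 46.3% of all tested genes and the 56.2% of those with at least 5 CPM. The 4 others (Exosc1, Exosc5, Exosc7 and Exosc9) had log2 fold changes from -0.28 to 0.23 and were not called. Exosc6 had 0 counts in every library; all of its 1326 exon bases are shared with exons of Aars on the same strand, where the counting left reads out, so its level was not measured.

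In nonsense-mediated decay 1 gene stood out. Smg8 (ENSMUSG00000020495.13, chromosome 11, 87077732 to 87086774, minus strand) encodes a regulatory subunit that restrains the kinase SMG1. It held 15.6, 14.5 and 12.8 CPM in controls and 36.4, 31.3 and 32.3 CPM in mutants. Every mutant library lay above every control (log2 fold change 1.22, SE 0.0987, adjusted p = 1.23e-05, and a call in all 19 alternative fits). Smg9, which forms a heterodimer with SMG8, went the other way, from 27.2, 25.6 and 25.9 CPM to 21.6, 23.4 and 22.2 CPM (log2 fold change -0.23, adjusted p = 0.0306). Its call was lost in 12 of 19 alternative fits, among them those without control 1, control 3, mutant 1 or mutant 3, without mutant 1 and mutant 2, and with library totals, DESeq2 or the replicate block.

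Upf3a, an adaptor to the exon junction complex, held 75.7, 72.4 and 77.7 CPM against 68.1, 63.7 and 65.7 CPM (log2 fold change -0.19, adjusted p = 0.0366), a fall lost in 12 of 19 alternative fits. Among these were the fits without control 1, control 3, mutant 2 or mutant 3, without mutant 1 and mutant 2, and with library totals, DESeq2 or the replicate block. The helicase gene Upf1 and Upf2, Upf3b, Smg1, Smg5 and Smg6 were not called, with log2 fold changes between -0.14 and -0.0022 and 95% intervals within -0.29 to 0.17.

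The ZFP36 proteins bind AU-rich elements of cytokine and growth-response mRNAs. Zfp36l1 rose from 38.5, 32.2 and 36.98 CPM to 47.5, 46.9 and 47.7 CPM (log2 fold change 0.40, SE 0.0799, adjusted p = 0.00265). Zfp36 (tristetraprolin) held 37.01, 40.2 and 45.4 CPM against 31.2, 39.1 and 38.6 CPM (log2 fold change -0.17, adjusted p = 0.224). Zfp36l2, the most abundant of the 3 per kb (44.04 ± 0.391 CPM per kb in controls), held 155, 157 and 155 CPM against 155, 151 and 162 CPM (log2 fold change 0.01, 95% interval -0.14 to 0.16). The sign of that value changed with the scaling and the library left out. Members that did not meet the count rule were Zfp36l3, Pabpc4l, Pabpc5, Pabpc6, Pabpc1l2a-ps, Pabpc1l2b-ps and Exosc6.

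The share of each gene in a pair was computed from CPM per kb for 11 pairs. These were relatives such as Cnot7 and Cnot8, and partners or counterparts in other compartments, such as Pan2 and Pan3 or Xrn1 and Xrn2. The size of a share depends on the union exon lengths, 18585 bases for Xrn1 and 3981 for Xrn2. Their coding transcripts have 5499 and 3434 bases, so shares are not proportions of transcript molecules. In 8 of 11 pairs the shares did not overlap between groups, at an exact 2-sided permutation p of 0.1 each, the smallest that 3 against 3 libraries allow (adjusted p over the 11 pairs 0.1375). No share of separate pairs was computed over other genes; for CPM of single genes, ranges were separate in 56.9% of all tested genes and 65.4% of those with at least 5 CPM. Dcp1a gave 65.5 ± 1.44% of Dcp1a plus Dcp1b in controls and 56.9 ± 2.82% in mutants, the widest shift. Xrn1 gave 15.5 ± 0.285% of Xrn1 plus Xrn2 and then 11.9 ± 0.0465%. Edc3 went from 28.1 ± 1.5001% to 34.4 ± 0.221% of Edc3 plus Edc4, Lsm14a from 64.6 ± 2.97% to 69.9 ± 0.428% of the Lsm14 pair, and Zfp36l1 from 21.4 ± 1.71% to 26.4 ± 0.565% of Zfp36l1 plus Zfp36l2. Cnot7 went from 32.2 ± 2.93% to 28.2 ± 0.626% of Cnot7 plus Cnot8, Tob1 from 90.8 ± 0.421% to 88.9 ± 0.295% of the Tob pair, and Pabpc1 from 95.1 ± 0.586% to 93.7 ± 0.227% of Pabpc1 plus Pabpc4 (SD, n = 3 each). The shares of Cnot6 in Cnot6 plus Cnot6l (exact p = 0.2), Upf3a in the Upf3 pair (exact p = 0.3) and Pan2 in Pan2 plus Pan3 (exact p = 0.7) overlapped.

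**Figure D4:**
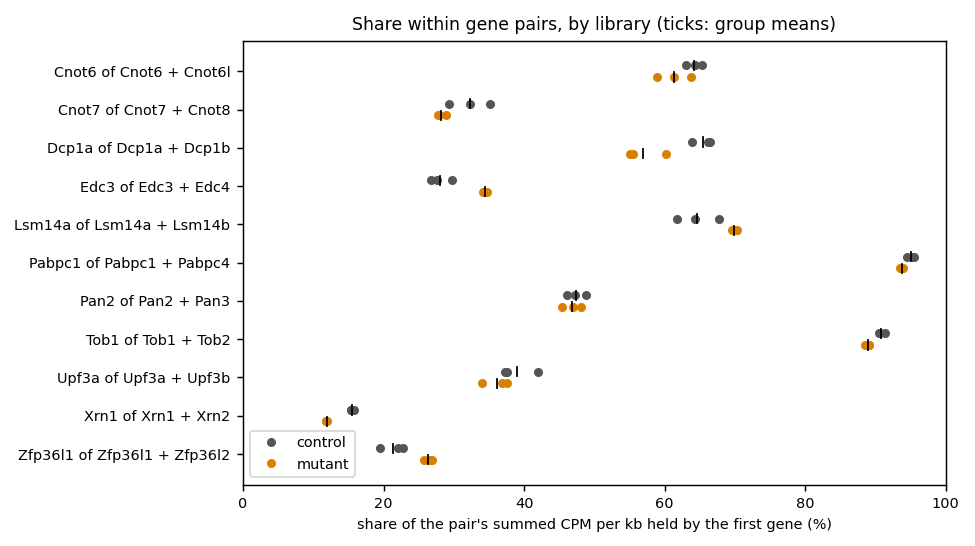
Share (x axis, %) of the summed CPM per kb of a gene pair (y axis) that the first gene holds, in each control (grey) and mutant (orange) library, with ticks at group means. In 8 of 11 pairs the grey and orange points are separate, with the widest gap between means for Dcp1a and Dcp1b.

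Exon number went with direction among members. The median number of exons of the coding transcript was 4 for members that rose, 18.5 for those that fell and 8 for those not called, and over all tested genes with a coding transcript it was 7, 11 and 9. Across 64 members the Spearman correlation of exon number with log2 fold change was -0.58, across 14200 genes -0.16, and across 10367 genes with at least 5 CPM -0.21. Gene length on the same scale gave -0.38 across 65 members and -0.11 across genes with at least 5 CPM. Genes are not independent, all points share the same 6 libraries, and the relation was looked for after values were seen. Exon number also goes with role, since Cnot1 has 49 exons and Xrn1 42, and Lsm10 has 2, Exosc4 3 and Smg8 4.

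**Figure D5:**
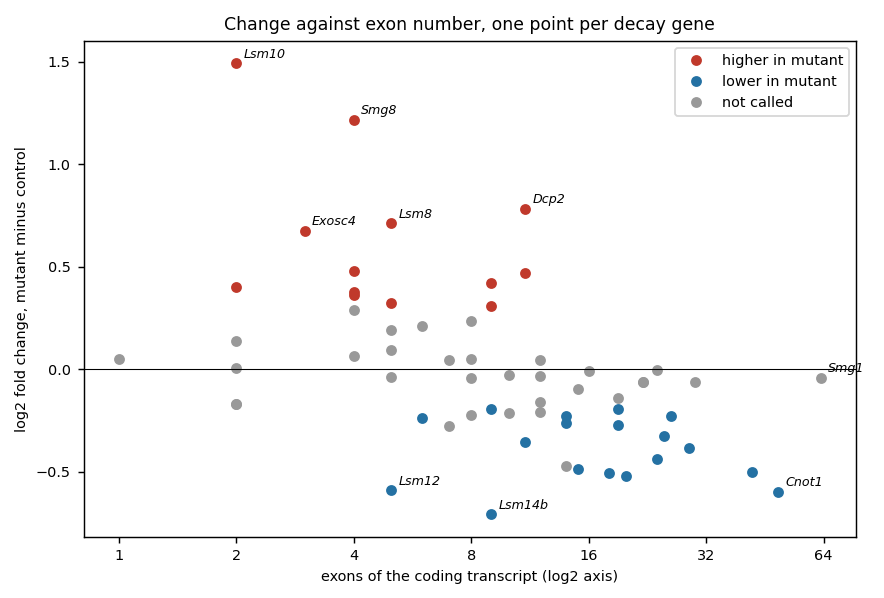
Log2 fold change (y axis, mutant minus control) against the number of exons of the coding transcript (x axis, log2 scale) for 63 of the 64 decay genes with a coding transcript, coloured by call. Red points lie at 11 exons or fewer, and Cnot1 with 49 exons lies lowest among genes with over 40.

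Genes that work beside the members gave mixed counts. The shares called in these 5 lists were 52.9%, 60.0%, 58.3%, 46.2% and 64.3% in the order below, near the 46.3% of all tested genes and 56.2% of those with at least 5 CPM. Among 17 exosome cofactors and DIS3 nucleases 2 rose and 7 fell, with Pelo, a ribosome rescue factor, going from 8.22 ± 0.790 to 17.9 ± 1.48 CPM (log2 fold change 1.13, adjusted p = 4.45e-05) and C1d and Tent4b lower (log2 fold changes -0.39 and -0.26). Among 15 adaptors and other deadenylases 7 rose and 2 fell, led by the mitochondrial Pde12 (25.9 ± 1.36 to 55.0 ± 3.17 CPM) and Toe1 (log2 fold change 0.68), with the Pumilio gene Pum2 lower (log2 fold change -0.51). Of 12 microRNA silencing genes 3 rose and 4 fell: Tnrc6c, a GW182 protein that recruits CCR4-NOT, went from 66.9 ± 3.89 to 166 ± 3.26 CPM and Ago4 rose (log2 fold change 0.87), while Prkra fell (log2 fold change -0.65). Of 13 other AU-rich element and immune decay genes 2 rose and 4 fell, with the RNase gene Zc3h12a at 23.4 ± 1.01 and 50.2 ± 15.6 CPM and Tial1 and Cpeb4 lower (log2 fold changes -0.46 and -0.56). Of 14 exon junction and cap-binding genes 7 rose and 2 fell, with Ncbp2, Magoh and Nudt16 at log2 fold changes of 0.73, 0.64 and 0.57. Without mutant 1 and mutant 2 the counts higher and lower were 2 and 3, 6 and 3, 2 and 5, 2 and 4, and 5 and 3 in the same order.

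The m6A-linked decay list, whose YTHDF proteins hand methylated RNA to CCR4-NOT or to RNase P, had 9 of 13 genes higher and 2 lower (median log2 fold change 0.44). Its share called was 84.6%, beside 46.3% of all tested genes and 56.2% of those with at least 5 CPM. Ythdf2 went from 49.4 ± 4.61 to 137 ± 8.46 CPM (log2 fold change 1.47), Ythdf1 from 34.3 ± 0.353 to 73.7 ± 6.56 CPM and Rpp38 went from 6.27 ± 0.251 to 17.0 ± 2.12 CPM. The 2 falls, chosen after their values were seen, were Rida (log2 fold change -0.52) and Igf2bp2 (-0.23). Transcripts often used as readouts of 2 of the routes were also counted. Of 12 nonsense-mediated decay targets 4 rose and 1 fell (41.7% called, near the 46.3% of all tested genes, median 0.16). Atf4 (log2 fold change 0.40), Tbl2 (0.39) and Gadd45b (0.43, a call lost in 5 of 19 alternative fits, among them those without control 2 and without mutant 1 and mutant 2) rose. The fall was Upp1, chosen after its value was seen: it held 18.2, 18.3 and 17.6 CPM against 4.17, 14.05 and 6.18 CPM (log2 fold change -1.16, adjusted p = 0.0183 by edgeR), and its call was lost without mutant 3 and with DESeq2. Of 16 tested ZFP36 targets 11 rose and 1 fell (75.0% called), including Il1a, Il1b and Ccl2, whose control levels of 0 to 0.285 CPM leave the folds imprecise; these rises were known when the list was made and give no independent evidence. Macrophage markers moved with them: 13 of 14 rose and 1 fell, their sum went from 37.5 to 47.1 CPM in controls to 83.3 to 113 CPM in mutants, and their part in the result was not tested.

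Markers of other cells gave mixed counts. Shares called were 60% of epithelial, 70% of stromal, 80% of tested neutrophil and 36.4% of T and NK cell markers. They were 33.3% of B and plasma cell markers, 33.3% of endothelial markers and 45% of dissociation genes. All tested genes gave 46.3%, and those with at least 5 CPM gave 56.2%. Of 10 epithelial markers 1 rose, 5 fell (Epcam and Vil1 among them) and 4 were not called, with log2 fold changes from -0.43 to 0.24. Their sums were 12423 to 13886 CPM in controls and 9477 to 11626 CPM in mutants. Stromal markers fell in 6 of 10 and rose in 1 (269 to 299 CPM against 155 to 174 CPM). Neutrophil markers rose in 4 of 5 tested of 8 listed (9.36 to 13.2 CPM against 13.3 to 40.1 CPM). Most of that sum came from a single gene, at 8.22 to 12.9 CPM in controls and 11.1 to 34.3 CPM in mutants, which overlap. T and NK cell markers rose in 3 and fell in 1 of 11, B and plasma cell markers rose in 1 of 3 and endothelial markers rose in 1 and fell in 1 of 6. Genes of the dissociation response rose in 8 of 20 and fell in 1 (1672 to 1905 CPM against 1916 to 2284 CPM). Without mutant 1 and mutant 2, counts higher and lower were 0 and 2 for epithelial, 1 and 5 for stromal, 10 and 1 for macrophage, 4 and 0 for neutrophil, 1 and 1 for T and NK cell, 1 and 0 for B and plasma cell, 1 and 0 for endothelial markers and 9 and 1 for the dissociation response. In the same fit the m6A-linked list had 7 higher and 1 lower, the nonsense-mediated decay targets 3 and 1 and the ZFP36 targets 11 and 1. No listed marker was at 0 in all 6 libraries. The part of these shifts in the decay gene results was not tested, and in bulk RNA fewer cells of a type and less RNA per cell cannot be told apart.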

How the data were processed

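Messenger RNA was measured in 6 libraries, 3 per genotype. Per the submitters' processing notes, Trim Galore 0.6.5 trimmed the reads and STAR 2.6.1d aligned them, with GRCm38 as the build. The deposited values are raw counts per gene, made by the authors with featureCounts 1.6.4 on the GENCODE vM25 annotation, per the file headers. Paired fragments were counted there on the strand of read 1, with no option to count reads on several genes or with several alignments, so exons shared between genes lose reads.

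The analysis used edgeR 4.0.16 in R 4.3.3, with filterByExpr (minimum count 10, minimum total 15), TMM, and the quasi-likelihood F test with genotype as the only term, 2-sided, with Benjamini-Hochberg adjustment over all 18539 tested genes and significance at 0.05. Signs of log2 fold changes give mutant minus control. CPM per kb uses the union exon length in the files. The fits were tested on simulated data in which far fewer genes changed than were called here. That run therefore does not show how scaling or false calls behave in these data. Alternatives used other scalings and filters, DESeq2 1.42.0, limma-voom (limma 3.58.1), a null of 1.5-fold, significance at 0.01, a block on replicate number, and fits without the most abundant genes or single libraries. Pair shares were compared by exact permutation with scipy 1.17.1 and plotted with matplotlib 3.10.9.

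Members, lists and alternatives were chosen with earlier results of these data known. Per library, values were printed for up to 4 members of each role with the smallest p and for both genes of a pair with separate shares. From other lists up to 3 genes with the smallest p were named, and beyond these only genes stated to be chosen after their values were seen. Mettl14 was always named. Promoters and coding transcripts came from RefSeq GRCm38.p6 and GENCODE vM21 tables on the same build, and which of them to print was decided after values were seen. 1 member counted in the totals is not reported here by name. The counts by role and by list without mutant 1 and mutant 2 were chosen after seeing the data.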

Additional observations from a re-analysis of the deposited data

How the results depend on the processing

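Calls of members were mostly stable. Over 19 alternative fits, the 31 called members gave 589 values, of which 492 stayed on their side of the threshold and 97 missed it, with none changing sign. Leaving out each library in turn cost 10 of the 31 a call at least once (Cnot7, Dcp1b, Ddx6, Exosc3, Lsm11, Pan2, Pan3, Patl1, Smg9 and Upf3a), and 21 held in all 6 of those fits.

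With library totals as the only scaling, 11 members fell and the median log2 fold change of members was 0.0256. The median was -0.0800 without a filter on low counts and -0.0054 with a mean of at least 5 CPM. Against a null of 1.5-fold, 2747 genes were called, of which 3 members rose and 0 fell. At a threshold of 0.01, 11 members fell. Leaving out libraries gave medians from -0.1087 (without mutant 1 and mutant 2) to -0.0472 (without mutant 3), 9 to 13 members higher, 13 to 20 lower, and 6873 to 8571 genes called in all.

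Alternatives were run for the 31 called members and 10 of the 34 that were not called; no called member changed sign. Zfp36l2 gave -0.0052 with upper quartile scaling and -0.0278 with no filter, and from -0.0192 to 0.0341 without single libraries or both mutants. Xrn2 gave 0.0118 with library totals, and Cnot8 -0.0036 with no filter and from -0.0632 to 0.0615 without libraries. Edc3 ran from -0.0260 to 0.0840 without libraries, and the difference in the Pan2 share from -1.23 to 0.139 percentage points. The cause of these changes was not tested.

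Replicate numbers gave no sign of pairing. Deviations from the group mean correlated at -0.085, -0.17 and -0.17 for same-numbered libraries and at 0.034 to 0.14 for differently numbered ones. Deviations from a mean of 3 libraries are not independent, so these values cannot decide whether mice were paired. With the replicate block, 7403 genes were called, and 13 members rose and 13 fell, all 26 of them also called without it. Depth limits the low members: Pabpc1l and Pabpc2 rest on few reads, and their intervals span more than a log2 unit.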
